A study of Mus musculus with 4 samples.

Results

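Of the peaks called after chromatin immunoprecipitation (ChIP) of HA-tagged Fbxl10, few were found in cells with and without induction of the protein, and the positions common to both peak lists, outside a zinc finger gene cluster on chromosome 4, are described here. Both lists come from mouse embryonic fibroblasts (MEFs) labelled as overexpressing HA-tagged Fbxl10. In the induced group doxycycline was added to the medium at 1 µg/ml for 48 hours, and the non-induced group has the same transgene label and no doxycycline label. Chromatin of each ChIP library (7 µg) was precipitated with 5 µg of an HA antibody. No file used here measures the tagged protein in cells without doxycycline. The labels describe 4 libraries, an input and a ChIP library per condition, and 1 peak list per ChIP library was analysed. The promoter that drives the transgene, the strain, and the number of embryos or clones behind the MEFs are not stated in the labels, and peak positions cannot check the fibroblast label against marker expression.

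Sites were chosen by position: an induced peak had to overlap a non-induced peak by at least 1 bp, and peaks with a midpoint on chromosome 4 from 145000001 to 148000000 (mm10) were left out. This gave 132 of 5497 induced peaks (2.40%, exact 95% interval 2.01 to 2.84) and 129 of 10532 non-induced peaks (1.22%, 1.02 to 1.45). In the whole lists, chromosome 4 cluster included, 3.37% of induced and 1.78% of non-induced peaks overlapped the other list, so the cluster held 53 of the 185 and 58 of the 187 overlapping peaks. Peaks that overlap each other were joined into 125 sites, of which 116 held 1 peak of each list and 9 held more. Membership and every score come from these same lists, so the values of the members are a description. With 1 list per condition there is no replicate check and no test. Intervals cover counting error only, and neighbouring peaks are not independent of each other.

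Fbxl10, also named Kdm2b, is a histone lysine demethylase with a JmjC domain. It also carries a CXXC zinc finger that binds DNA where the dinucleotide CG is unmethylated, as in the CG-rich promoters of many housekeeping and developmental genes. There it is known to bring in a variant Polycomb complex, which ubiquitinates histone H2A and helps to keep developmental regulators silent.

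The promoter sequences below, from RefSeq on GRCm38.p6 (the coordinates of mm10), show the DNA at gene starts in or beside 8 of the shared sites. Each window starts 250 bases before a gene start and ends 50 after it, is written 5′ to 3′ on the gene's strand, and has every CG in capitals. The windows of Nop14 and Fbf1 lay wholly under both peaks, those of Cryz and Abhd11 mostly so, and those of Nrp2 and Col4a1 lay under the induced peak alone. Pik3cb and Tpbg had the most and the fewest CG among the windows that a shared induced peak touched; of their 300 bases 233 and 23 lay under the induced peak and 0 under both.
Nop14 (chr5:34660099-34660398, - strand): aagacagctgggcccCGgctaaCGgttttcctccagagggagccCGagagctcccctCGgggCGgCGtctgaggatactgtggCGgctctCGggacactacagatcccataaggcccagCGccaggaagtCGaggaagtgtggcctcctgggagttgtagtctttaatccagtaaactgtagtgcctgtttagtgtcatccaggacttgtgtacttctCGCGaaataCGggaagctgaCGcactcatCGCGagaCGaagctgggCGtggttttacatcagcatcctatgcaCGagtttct
Fbf1 (chr11:116168129-116168428, - strand): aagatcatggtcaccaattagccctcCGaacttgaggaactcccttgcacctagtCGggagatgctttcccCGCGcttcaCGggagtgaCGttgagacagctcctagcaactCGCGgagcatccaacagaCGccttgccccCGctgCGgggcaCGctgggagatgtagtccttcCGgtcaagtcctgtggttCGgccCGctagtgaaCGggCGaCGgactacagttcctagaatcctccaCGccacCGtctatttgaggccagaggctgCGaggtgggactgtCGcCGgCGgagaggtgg
Cryz (chr3:154596461-154596760, + strand): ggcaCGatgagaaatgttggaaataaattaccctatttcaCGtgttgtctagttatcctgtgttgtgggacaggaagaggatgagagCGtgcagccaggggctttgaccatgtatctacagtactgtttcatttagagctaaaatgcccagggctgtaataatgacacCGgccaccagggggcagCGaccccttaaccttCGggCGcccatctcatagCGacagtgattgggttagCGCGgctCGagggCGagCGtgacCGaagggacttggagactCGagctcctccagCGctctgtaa
Abhd11 (chr5:135008902-135009201, + strand): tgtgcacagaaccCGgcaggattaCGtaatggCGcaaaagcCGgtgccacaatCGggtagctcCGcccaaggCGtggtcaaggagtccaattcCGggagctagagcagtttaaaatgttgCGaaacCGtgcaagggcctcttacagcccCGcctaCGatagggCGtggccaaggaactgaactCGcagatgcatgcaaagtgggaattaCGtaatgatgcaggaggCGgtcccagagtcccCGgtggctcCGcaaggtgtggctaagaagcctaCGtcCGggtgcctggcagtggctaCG
Nrp2 (chr1:62703067-62703366, + strand): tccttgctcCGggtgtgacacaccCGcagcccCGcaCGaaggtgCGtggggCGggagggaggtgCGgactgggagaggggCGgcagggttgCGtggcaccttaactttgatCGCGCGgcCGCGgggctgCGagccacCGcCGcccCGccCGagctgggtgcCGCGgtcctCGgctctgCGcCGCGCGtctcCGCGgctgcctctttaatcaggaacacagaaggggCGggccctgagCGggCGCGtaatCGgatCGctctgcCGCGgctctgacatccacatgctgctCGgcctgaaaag
Col4a1 (chr8:11312777-11313076, - strand): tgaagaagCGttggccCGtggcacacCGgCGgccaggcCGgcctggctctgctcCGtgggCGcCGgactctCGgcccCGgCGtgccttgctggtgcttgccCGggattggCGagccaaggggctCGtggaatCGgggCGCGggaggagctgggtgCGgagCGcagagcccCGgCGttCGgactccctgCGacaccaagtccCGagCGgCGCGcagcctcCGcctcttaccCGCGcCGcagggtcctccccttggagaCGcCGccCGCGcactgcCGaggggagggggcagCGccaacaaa
Pik3cb (chr9:99140162-99140461, - strand): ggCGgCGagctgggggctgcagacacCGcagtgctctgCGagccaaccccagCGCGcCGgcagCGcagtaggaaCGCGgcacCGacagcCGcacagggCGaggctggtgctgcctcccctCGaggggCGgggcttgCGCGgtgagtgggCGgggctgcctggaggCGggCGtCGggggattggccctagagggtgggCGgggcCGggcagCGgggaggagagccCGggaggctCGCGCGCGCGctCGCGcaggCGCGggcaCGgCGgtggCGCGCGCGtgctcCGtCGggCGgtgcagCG
Tpbg (chr9:85842130-85842429, + strand): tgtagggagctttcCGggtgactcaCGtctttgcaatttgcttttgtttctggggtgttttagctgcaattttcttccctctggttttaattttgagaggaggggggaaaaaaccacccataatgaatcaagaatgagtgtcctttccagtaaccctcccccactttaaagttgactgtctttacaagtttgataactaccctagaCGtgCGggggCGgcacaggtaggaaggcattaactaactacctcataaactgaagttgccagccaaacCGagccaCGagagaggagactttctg
They held 19 (Nop14), 24 (Fbf1), 16 (Cryz), 21 (Abhd11), 37 (Nrp2), 37 (Col4a1), 44 (Pik3cb) and 7 (Tpbg) CG. The median of all 21263 coding windows in the table was 13, and 95.4% of them held at least 1 CG. CG reads the same on both strands, so a count on either strand is the same.

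Coding gene borders held the most readily named sites. A gene was counted at a site when its start or its end lay no more than 1 kb from the peak. Of the 132 shared induced peaks 42 (31.8%, 24.0 to 40.5) were at a border, against 2547 of 5312 induced-only peaks (47.9%, 46.6 to 49.3) and 47.2% of the whole induced list. The intervals of the shared and the induced-only share did not overlap, and the shared one was the lower. This separation was lost without the clustered peaks described below: at single sites the share was 38.4% (28.8 to 48.7), and in the clusters 12.1% (3.40 to 28.2). Of the 129 shared non-induced peaks 34 (26.4%, 19.0 to 34.8) were at a border, against 292 of 10345 non-induced-only peaks (2.82%, 2.51 to 3.16) and 3.15% of the whole non-induced list. A shared non-induced peak overlaps an induced peak, so its place is tied to that of its partner. Within 5 kb of a border lay 67 of the shared induced peaks (50.8%, 41.9 to 59.6), against 62.8% of the whole list, and 63 of the shared non-induced peaks (48.8%, 39.9 to 57.8), against 10.4%. The induced border peaks at 1 kb made up 41 sites with 47 coding genes. Of these genes 40 also had a shared non-induced peak within 1 kb. Sox9, Boc, Gpc1, Dis3l, Kazald1, Gm17019 and A530032D15Rik had the induced one alone that near. The 47 are 0.215% of 21900 coding genes, where 13.4% had any induced and 1.59% any non-induced peak at a border.

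**Figure D1:**
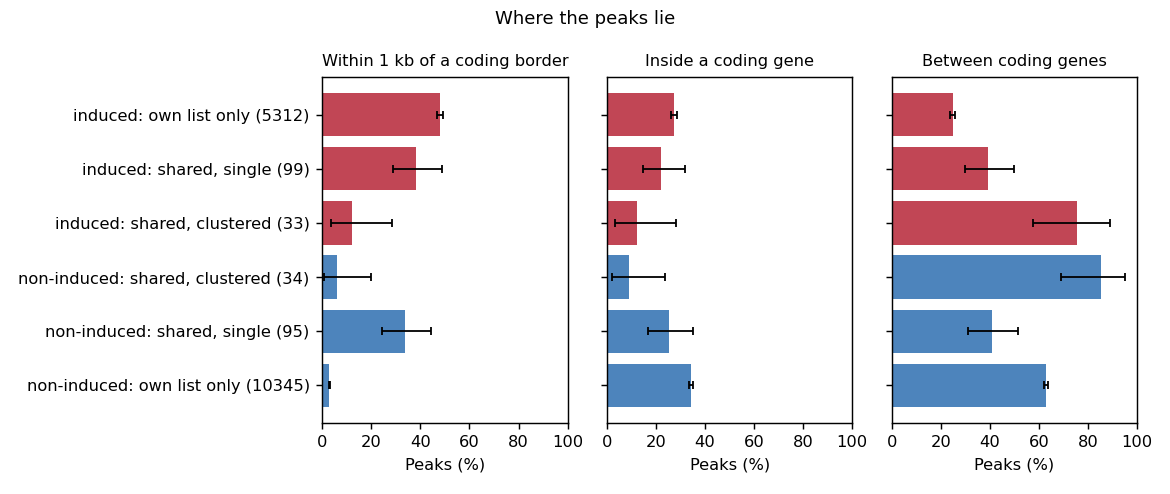
Share of peaks within 1 kb of a coding gene border, inside a coding gene, and between coding genes (%, exact 95% intervals), for peaks in both lists and in their own list only, with the number of peaks in brackets; clustered means in a 1 Mb bin with at least 3 shared sites. Single shared induced peaks were at a border in 38.4% of cases, and clustered ones lay between coding genes in 75.8%.

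Developmental transcription factors were among them. Osr2, a zinc finger factor of palate and limb development, had the highest induced score of the border sites. Its site spanned induced peaks with scores of 134 (chr15:35293961-35295012) and 298 (chr15:35295426-35297890), and a non-induced peak of 69.9 bridged the gap between them. Sox9, the master factor of cartilage and a regulator of testis development, had an induced peak of 90.4 (chr11:112780219-112781715), 495 bp from the border. It held within it a non-induced peak of 51.2, which lay 1382 bp from the border. Ebf1, a factor of B cell and fat cell differentiation, had peaks of 81.2 and 67.8 (chr11:44616374-44617309), again the non-induced within the induced. Of the 71 developmental transcription factor genes listed, these 3 had a shared induced peak at a border. The non-induced partner was within 1 kb of the border at Osr2 and Ebf1 but not at Sox9. Any induced border peak was found at 32 (45.1%) of the 71 and any non-induced one at 3, against 13.4% and 1.59% of all coding genes. A shared induced border peak was found at 0.215% of all coding genes. The non-induced scores of Osr2, Sox9 and Ebf1, from 51.2 to 69.9, lay on either side of 60.2, the median of the whole non-induced list.

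Genes of signalling and guidance followed. Of those named here only Hey1 and Nrp2 are in the fixed lists of such genes counted below. Nrp2, a receptor for class 3 semaphorins and a co-receptor for VEGF, had an induced peak of 211 across its start (chr1:62702665-62704216) and a non-induced peak of 59.4 on its inner flank. Hey1, a repressor switched on by Notch, had peaks of 55.4 and 62.3, and the induced one (chr3:8667615-8668192) lay 577 bp from its border. Boc, a co-receptor for hedgehog ligands, had peaks of 107 and 58.4 (chr16:44557657-44558734), and the hairpin of the microRNA gene Mir3081 (chr16:44558046-44558129) lay under the induced peak. Spry4, an inhibitor of receptor tyrosine kinase signalling, had peaks of 160 and 50.1 (chr18:38599973-38601385), with Arhgap26 also within reach. Gpc1, a cell surface heparan sulphate proteoglycan, had peaks of 103 and 58.6 that overlapped by 16 bp. Tpbg, a membrane protein that restrains Wnt signalling, had 54.0 and 74.9, and Pik3cb, a catalytic subunit of PI3-kinase, 121 and 65.2. In the list of 69 signalling genes 1 (Hey1) had a shared border peak and 24 (34.8%) any induced border peak. Among 41 axon guidance genes the counts were 1 (Nrp2) and 12 (29.3%). Of all coding genes 0.215% had a shared and 13.4% any induced border peak. No test was made of counts this small.

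Matrix genes included 2 collagen loci. Col4a1 and Col4a2 encode the chains of basement membrane collagen and are transcribed away from each other from a common promoter. They had an induced peak of 231 over that promoter (chr8:11312094-11313621) and a non-induced peak of 56.6 (chr8:11313138-11313682) at its edge. Col2a1, the cartilage collagen and a known target of Sox9, had adjacent induced peaks of 105 and 120 joined by a non-induced peak of 73.8 (chr15:98003694-98004228). Among 40 matrix and fibroblast genes 2 (Col4a1 and Col4a2, sharing 1 peak) were at a shared site and 12 had any induced border peak. Over all coding genes 0.215% had a shared induced border peak and 13.4% any induced one. Col2a1 is not in the list of 40.

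Other border sites lay at genes of varied functions. Abhd11, a mitochondrial hydrolase gene, had 224 and 65.8 (chr5:135008843-135010131). Pltp, the phospholipid transfer protein of plasma, had 128 and 62.8, and Dis3l, a ribonuclease of the cytoplasmic exosome, 120 and 61.6. These sites had an induced score above 100 and a non-induced score below 70, as had other border sites, Nop14 (103 and 64.5) among them.

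Scores above 100 and below 100 were both seen in other such genes. Fndc3a had 119 and 96.1, Eral1, a factor of mitochondrial ribosome assembly, 112 and 70.9, and the complement regulator Cr1l 104 and 76.1. Nop14, needed to build the small ribosomal subunit, shared peaks of 103 and 64.5 with the receptor kinase gene Grk4. Fbf1, of the centriole's appendages, had 93.5 and 51.9, Atp5l, a subunit of ATP synthase, 91.7 and 54.9, and Mfsd2a, a lipid transporter, 87.9 and 59.0. Tyw3, of tRNA modification, and Cryz shared 77.8 and 54.7, Borcs6 of the lysosome had 72.1 and 59.3, and Kazald1 63.2 and 59.4.

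In a few border sites the non-induced peak ranked high for its list. Arhgef12, a guanine nucleotide exchange factor, had 87.8 induced and 122 non-induced. It was the 1 site of the 41 with a non-induced score of at least 100, and 19 had such an induced score. Over the whole lists 3.59% of non-induced and 21.2% of induced peaks scored at least 100, so this limit does not rank both lists alike. Of 1327 predicted genes named Gm 5 (0.377%) had a shared border peak, against 0.215% of all coding genes. Among them were Gm7592 (251 and 85.0) and Gm2427 on chromosome 1 and Gm17019 (61.9 and 77.9) on chromosome 5, all inside the clusters described below.

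No shared border peak was found at any gene of the other fixed lists. These were 39 Hox genes, 65 replication-dependent histone genes, 80 cytosolic ribosomal protein genes, 25 early response genes, 38 cell cycle drivers and inhibitors, 39 Polycomb subunits and histone lysine demethylases, 30 markers of other cell types, 1463 olfactory and vomeronasal receptor genes, and 397 genes named Zfp. Induced border peaks of any kind stood at 10 Hox (25.6%) and 41 histone genes (63.1%), against 13.4% of all coding genes. Non-induced ones stood at 6 and 0, where 1.59% of all coding genes had one. At the Hox genes both lists thus had peaks, but no pair that overlapped at a border. Read against the 0.215% of all coding genes at a shared peak, 0 genes in lists of 25 to 80 is near the background.

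At gene starts the peaks of a pair could be placed along the gene. Of the 47 border genes 30 had a promoter window in the RefSeq table, which also gives the strand. Outside the clusters 24 pairs at 23 genes had a start within 1 kb of the induced peak. That condition was set on the induced peak alone, and induced peaks of single sites were wider (median 874 bp against 596 bp); the part of either in the counts that follow was not tested. For each pair 1 start was used, and where several lay near it was not always the one nearest to a midpoint. At the Nop14 site a start of Grk4 was nearer to both midpoints. At the Tyw3 site a start of Cryz lay under the non-induced peak. The counts and distances that follow depend on that choice. The induced peak covered the start used in 16 of the 24 and the non-induced peak in 2, at Nop14 and Fbf1. The midpoint of the induced peak lay a median of 337 bp from the start and that of the non-induced peak 649 bp, and the non-induced midpoint was the farther one in 18 of the 24 pairs. It lay upstream in 14 pairs (at Col4a1 584 bp and at Abhd11 589 bp before the start used). In 10 it lay inside the gene (at Nrp2 839 bp and at Dis3l 971 bp after that start). Abhd11 and Dis3l each have another start that is nearer to the non-induced peak, at Abhd11 44 bp from its edge.

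**Figure D2:**
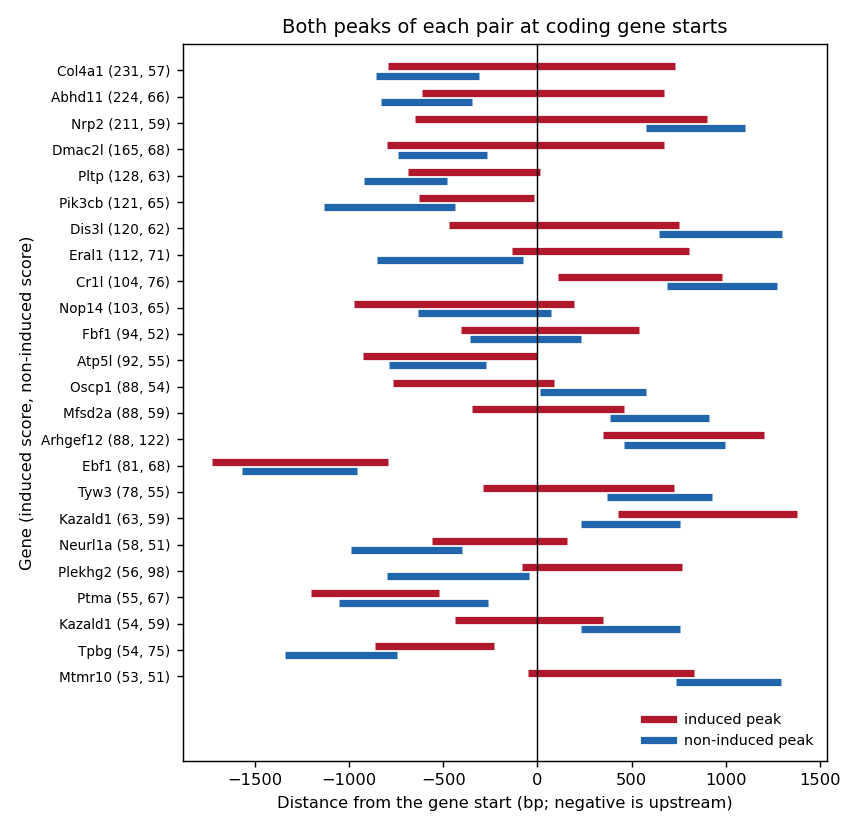
Induced (red) and non-induced (blue) peaks of the 24 single pairs within 1 kb of a coding gene start, as distance from the start in bp along the gene's strand, ordered by induced score, with both scores in brackets. Red bars cross the start line in 16 pairs and blue bars in 2, and Kazald1 appears for each of its induced peaks.

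A count with the same condition on each list used the peaks of either list within 1 kb of a start. Of the induced peaks within 1 kb of a start of the table, 66.7% (44.7 to 84.4) of the 24 single shared ones and 57.2% (55.1 to 59.3) of 2264 induced-only ones covered a start. Of the non-induced peaks that near, 3 of 24 single shared ones (12.5%, 2.66 to 32.4) and 17 of 139 non-induced-only ones (12.2%, 7.29 to 18.9) covered a start. Here any start of the table counts, not only the start used for a pair above. The part of peak width in these shares was not tested. For both lists the intervals of shared and other peaks overlapped. Within 1 kb of a start lay 41.6% of all induced and 1.56% of all non-induced peaks.

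Promoter windows under the shared peaks were rich in CG, as were those under other induced peaks. Shared induced peaks touched 26 windows of 22 genes, with a median of 22 CG in 300 bases (quartiles 16 and 31, range 7 to 44). The median was 24 (18 to 30) in 1943 windows under induced-only peaks, 11.5 (1.75 to 22.25) in 40 windows under non-induced-only peaks and 11 (3 to 23) in 19254 windows with no peak. At least 10 CG were held by 25 of the 26 shared windows (96.2%, 80.4 to 99.9), 94.6% (93.5 to 95.6) of the induced-only, 55.0% (38.5 to 70.7) of the non-induced-only and 52.9% (52.2 to 53.6) of the windows with no peak. The interval of the shared windows excluded the share of the non-induced-only windows. The shared windows were picked through their induced peak, so their likeness to the induced-only windows is tied to that choice. Of the 26 windows 9 also had bases under the non-induced partner, with 15 to 26 CG, and 17 had none. In the sequences printed above, those of Nrp2 and Col4a1, with 37 CG each, were among the latter; 7.29% of all coding windows held that many. Windows of 1 gene, or of a pair of neighbours, can overlap and are not independent.

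**Figure D3:**
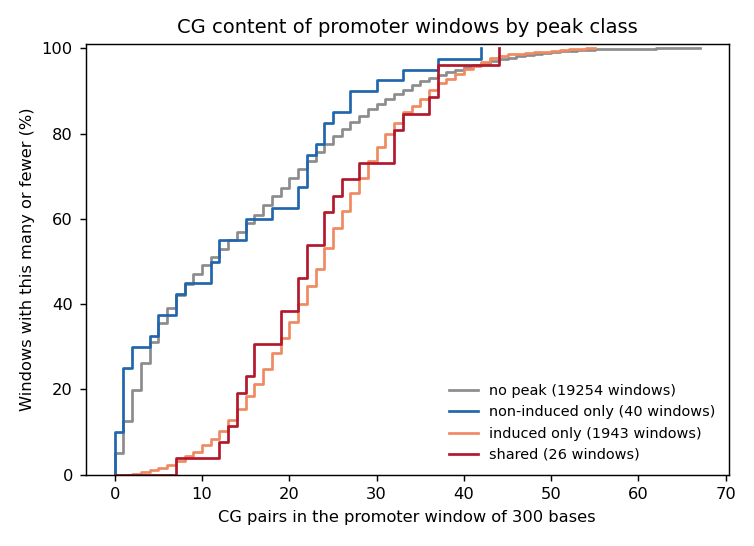
Cumulative share of coding promoter windows (%) by their number of CG pairs in 300 bases, for windows under shared induced peaks (26), induced-only peaks (1943), non-induced-only peaks (40) and no peak (19254). The shared and induced-only curves run together to the right, with medians of 22 and 24, and the other curves have medians of 11.5 and 11.

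Away from borders, 64 of the 132 shared induced peaks (48.5%, 39.7 to 57.3) lay between coding genes, against 24.9% (23.7 to 26.0) of induced-only peaks, and 26 lay inside a coding gene. Of the non-induced peaks 68 of 129 (52.7%, 43.7 to 61.6) lay between coding genes, against 62.9% (62.0 to 63.8) of non-induced-only ones. The 95 sites outside the clusters fell into 37 within 1 kb of a border, 14 from 1 to 5 kb, 17 from 5 to 50 kb and 27 farther than 50 kb. Across these classes the median induced score went from 91.7 through 87.8 and 82.4 to 76.3, and the median non-induced score from 62.3 through 63.6 and 65.7 to 67.0. In percentiles of their own list these were 73.3 and 62.0 for the nearest and farthest induced class, and 57.5 and 70.4 for the non-induced. The distance between midpoints also differed, with a median of 440 bp for pairs at borders and 141 bp for those over 50 kb away, where 91.3% of the shorter peak was covered at the median against 57.1% at borders.

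Among the distant single sites were the ones with the highest non-induced scores. A site near the start of the assembled chromosome 12 (chr12:3109391-3110225, 137 kb from Rab10) had 144.57 induced and 377 non-induced. A site inside Chl1, which encodes a neural adhesion molecule, had 152 and 364 (chr6:103648781-103649755), 83.3 kb from its nearest border. A single site on the Y chromosome (chrY:11857540-11858523, 524.7 kb from Gm20812) had 178 and 285. A site on chromosome 14 (chr14:19415578-19419814, 114 kb from Gm2244) was 4237 bp wide in the induced list and had 77.0 and 276. The opposite order was seen 32.0 kb from Apba2, an adaptor of the synapse, with 281 and 122 (chr7:64468067-64469607). The labels do not say whether scores of both lists are on a common scale, so these pairs show rank within each list only.

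Transfer RNA (tRNA) genes, transcribed by RNA polymerase III, lay under several shared peaks; this was looked at after the sites were seen. Of the 132 shared induced peaks 4 (3.03%, 0.832 to 7.58) overlapped a tRNA gene, against 42 of 5312 induced-only peaks (0.791%, 0.570 to 1.07), of which 4 lay on the mitochondrial genome, and 0.837% of the whole list. Of the shared non-induced peaks 4 of 129 (3.10%, 0.851 to 7.75) did, against 11 of 10345 (0.106%, 0.0531 to 0.190) and 0.142% of that list. The intervals overlapped for the induced list and did not for the non-induced list. A shared non-induced peak overlaps an induced peak, so its place at a tRNA gene is tied to that of its partner. Each shared count rests on 4 peaks. The strongest site overlapped n-TVcac2, n-TAagc7 and n-TVaac5 on chromosome 13 (chr13:23411863-23413376, 147.66 and 103). The next overlapped n-TRacg3, in part, and n-TYgta1, n-TYgta2 and n-TAagc14 on chromosome 3 (chr3:19627991-19629145, 139 and 78.1). A peak pair at n-TSaga7 had 54.7 and 90.1, and an induced peak of 59.7 covered n-THgtg5, while its non-induced partner of 53.0 did not. At Plekhg2, a guanine nucleotide exchange factor, it was the non-induced peak (98.2) that covered a tRNA gene, n-TIaat16, and the induced peak (56.1) overlapped it by 37 bp at the gene start. Several tRNA genes are near-identical copies, and the labels do not say how reads with more than 1 match were placed.

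Clusters held 30 of the 125 sites, with 33 induced and 34 non-induced peaks, in 6 bins of 1 Mb that had at least 3 sites. Their peaks were wide, with a median of 2377 bp in the induced list against 874 bp at the single shared sites and 752 bp in induced-only peaks. In the non-induced list the medians were 2745 bp, 596 bp and 586 bp. Over 1500 bp wide were 24 of the 33 clustered induced and 25 of the 34 clustered non-induced peaks, against 4.37% and 0.416% of the peaks in their own list only. Wide peaks are more easily overlapped, and the part of width in the overlap was not tested.

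Chromosome 10 held the highest induced scores. Within 8.16 kb (chr10:3109112-3117269) 3 induced peaks had 1134, 3100 and 2570, where 3100 is the highest score of the list and occurs in 2 peaks. The 4 non-induced peaks there had 173 to 308. No coding gene lies in that stretch, and the closest, 9230019H11Rik, is 2.57 kb away.

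Chromosome 1 held 7 sites over 416 kb (chr1:85079519-85495630) among A530032D15Rik, Gm38510, Gm7609, C130026I21Rik and Gm7592. Induced scores ran from 58.7 to 271 with a median of 134, and non-induced ones from 56.5 to 184 with a median of 71.5. The median width was 4731 bp in the induced and 2618 bp in the non-induced list. At Gm7592 a single induced peak of 7748 bp spanned 3 non-induced peaks with scores of 85.0, 56.5 and 63.9.

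Chromosome 5 held 12 sites in neighbouring bins, 3 from 14 to 15 Mb and 9 from 15 to 16 Mb, among Speer4e, Speer4d, Gm9758, Gm10354, Gm17019, Gm21149, Gm21190 and Gm21083. Speer genes form a rodent family of spermatogenesis-associated, glutamate-rich proteins with many near-identical copies, so the copy a peak belongs to is uncertain. In the bin from 15 to 16 Mb the induced scores had a median of 64.9 (50.8 to 191) and the non-induced ones of 120 (57.8 to 431). The non-induced score was the higher number in 9 of 10 pairs, though a common scale of the lists is not known. The site of highest non-induced score, 431, was covered by induced peaks of 191 and 56.4 (chr5:15004282-15010749).

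The Y chromosome stood out by its share. Of its 19 induced peaks 13 (68.4%, 43.5 to 87.4) and of its 30 non-induced peaks 13 (43.3%, 25.5 to 62.6) were shared, against 2.12% (1.76 to 2.54) and 1.08% (0.892 to 1.30) on the autosomes. Near its start 5 induced peaks within 124 kb had 166 to 313 and their 5 partners 270 to 821. Near its end, next to Gm52481, 4 induced peaks had 88.8 to 795 and 4 non-induced ones 54.7 to 1580, the highest non-induced score of any shared site (chrY:90794810-90803016, 8207 bp wide). The other 4 induced peaks lay apart at 88.4 to 178. On the X chromosome 3 of 14 induced (21.4%, 4.66 to 50.8) and 3 of 47 non-induced peaks (6.38%, 1.34 to 17.5) were shared. The pair inside Mid1, a ubiquitin ligase gene that spans the boundary of the pseudoautosomal region in laboratory mice, had 216 and 54.2. A pair beyond Mid1 had 104 and 206, and a pair 34.8 kb from Pak3 73.1 and 75.5. Sites on X and Y were counted apart, and whether any of them hold the same sequence was not tested. The labels do not say where reads that match both sex chromosomes, or several copies on 1 of them, were placed.

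**Figure D4:**
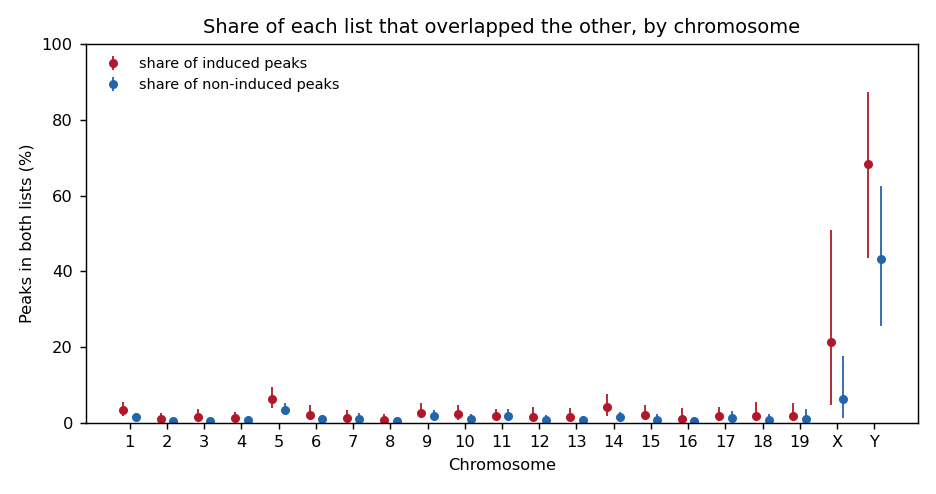
Share of the induced (red) and non-induced (blue) peaks of each chromosome that overlapped the other list (%), outside the chromosome 4 cluster, with exact 95% intervals. The Y chromosome lies highest at 68.4% and 43.3%, X has wide intervals, and chromosome 5 is the highest autosome at 6.34% and 3.43%.

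Sites were also found at the ends of chromosomes. Within 1 Mb of the outermost annotated genes lay 17 of 132 shared induced peaks (12.9%, 7.69 to 19.8), against 1.73% (1.40 to 2.12) of induced-only peaks. In the non-induced list these were 18 of 129 (14.0%, 8.48 to 21.2) and 1.16% (0.963 to 1.39). Most of the shared count came from the clusters: 12 of the 33 clustered induced peaks and 5 of the 99 single ones (5.05%, 1.66 to 11.4) lay there, and in the non-induced list 13 of 34 and 5 of 95 (5.26%, 1.73 to 11.9).

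Within their own lists the shared peaks ranked above the middle. The median score was 88.9 (quartiles 60.1 and 140) for shared induced peaks and 66.2 for induced-only ones, and 67.2 (57.8 and 104) against 60.1 in the non-induced list. At single sites the medians were 87.9 and 64.7, and in the clusters 111 and 167. In the top 10% of its list were 21 of the 99 single shared induced peaks (21.2%) and 20 of the 95 single non-induced ones (21.1%). In the clusters these were 15 of 33 (45.5%) and 23 of 34 (67.7%). The non-induced scores of the clusters thus lay highest, with a median at percentile 99.5 of the list.

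Between partners the scores were loosely related. Over the 136 pairs Spearman's rank correlation was 0.342 and Pearson's r of the log10 scores 0.419. Over the 99 pairs of single sites these were 0.208 and 0.207. The pairs share position, and neighbouring pairs can share a peak, so no p-value is given. The shorter peak was covered by 88.7% at the median. It was covered by at least 50% in 102 pairs and wholly in 47, and 10 pairs overlapped by fewer than 100 bp.

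**Figure D5:**
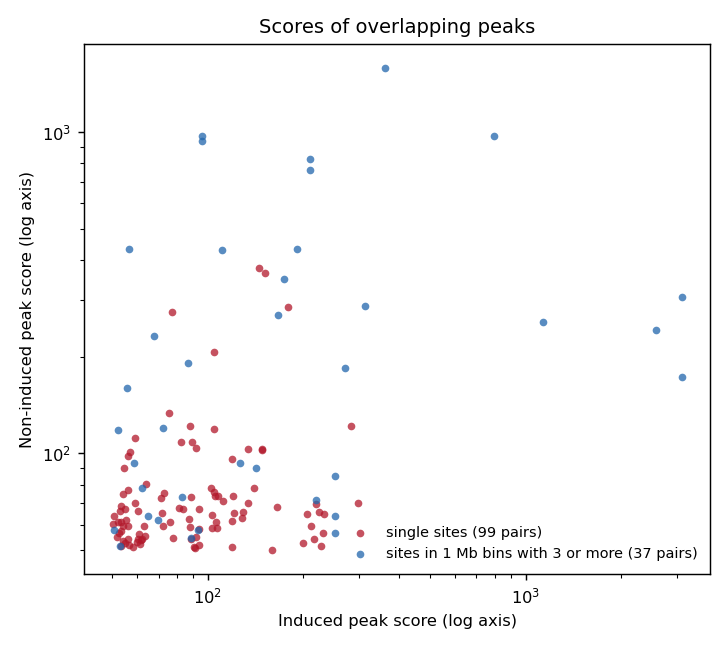
Score of the induced peak against that of its non-induced partner for 136 pairs, on log axes, at single sites (99 pairs, red) and in 1 Mb bins with 3 or more sites (37 pairs, blue). Single sites gather at low non-induced scores (median 64.7) over the range of induced scores, and the highest non-induced scores belong to the bins.

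The rule has its threshold at 1 bp. Just inside it, the pair at Gpc1 overlapped by 16 bp (103 and 58.6) and that at Plekhg2 by 37 bp (56.1 and 98.2). Just outside it, a gap of 11 bp separated peaks of 59.5 and 76.9 on chromosome 16 (chr16:3254652-3255726). Gaps of 23 bp and 24 bp separated peaks of 52.2 and 50.8 on chromosome 6 and of 56.7 and 62.7 on chromosome 8, each 79076 bp or more from a coding border.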

How the data were processed

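HA ChIP peaks of induced and non-induced MEFs were analysed; the input libraries were not used here. The deposited lists give position and a score for each peak, the authors' own value from their caller. The caller was MACS, as the peaks' names in the files say; no source used here gives its version, threshold, score formula or any pooling. The submitters' processing notes name Bowtie2 and mm10. The labels' protocol speaks of 3 independent samples, whose relation to the lists is not given. Lists were matched to conditions by the marks w and wo in their names and in the library titles. Depth is unknown.

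Overlap was at least 1 bp; genes, starts and promoter windows came from RefSeq tables of GRCm38.p6, which are not complete. Shares have exact Clopper-Pearson 95% intervals. No tests were run. Members, gene lists and bins were chosen with earlier results of these data known. Named are up to 30 border sites of highest induced score, the 10 highest sites of each list in the text or its ranges, bins with 3 or more sites and list members; a gene or more within that rule is left out of this text. Clustered sites are those in such 1 Mb bins. Alternatives were a joint median score, 50% overlap, a 1 kb gap, border windows of 500 bp and 5 kb, all genes, and removal of the Y chromosome or of bins. The overlap function was tested on simulated data, and its counts differed from bedtools 2.31.1 by 0. Python 3.11.15, pandas 2.3.3, SciPy 1.17.1 and matplotlib 3.10.9 were used.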

Additional observations from a re-analysis of the deposited data

How the results depend on the processing

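With both lists limited to scores at or above their joint median (61.6), 69 induced and 69 non-induced peaks were shared, the border share of shared induced peaks was 23.2%, and the median scores were 120.2 and 93.4; the rise of the medians follows from the limit itself. A border window of 5 kb gave 50.8% of shared induced and 48.8% of shared non-induced peaks at a border, where 62.8% of all induced and 10.4% of all non-induced peaks were that near. A window of 500 bp gave 17.8% for the non-induced peaks, and borders of all genes, coding or not, 36.4%. The other 27 of the 36 values stayed within 1.5 times the count, or within the exact interval of the share or median, among them those without the Y chromosome and without the bins. No paired analysis was possible because each condition has 1 list. Read depth is unknown, and scores begin at 50 in both lists, so what lay below that score is not seen.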

Other observations

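Some single sites from 1 to 5 kb from a border lay near developmental regulators; these were picked after their values were seen. Wnt5a, a ligand of limb and gut outgrowth, had induced peaks of 52.2 and 106 inside the gene that met the same non-induced peak of 61.2 (chr14:28506925-28507508). Zfp503, a zinc finger repressor, had 232 and 64.7 (chr14:21986264-21987401), and Emx1, a homeobox factor of the cortex, 218 and 69.6 (chr6:85189301-85191305). Skor1, a neuronal co-repressor, had 199 and 52.6 at 4.84 kb, and Onecut2 had 83.5 and 67.0 at 1021 bp. Further sites stood near Sfmbt2, a Polycomb-related gene (87.2 and 62.4 at 4.92 kb), Uncx (56.4 and 51.8 at 4.23 kb) and Pax5, the B cell factor (56.0 and 76.8 at 2.45 kb). In all, 14 single sites lay from 1 to 5 kb, and the others stood near genes such as Hspa1b, a heat shock protein (71.5 and 72.9), and Tmem267 (108 and 73.8).

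A pair of sites inside Dock2, an activator of Rac in blood cells, lay on chromosome 11 with scores of 93.8 and 67.0 (chr11:34544340-34545235) and of 57.0 and 100.66 (chr11:34681552-34682522), each at least 101383 bp from a border.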
